A study of Mus musculus with 12 samples.

Results

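Control bone marrow mesenchymal stem cells (MSCs) cultured in adipogenic medium were compared with control cells cultured in osteogenic medium, in 3 RNA-seq libraries per medium. The cells came from C57BL/6 mice that were 4 weeks old and carry the genotype label WT, which the study's methods describe as Chd7 fl/fl littermates without Cre. Marrow of the femur, tibia and humerus was plated, passage 3 cells were induced, and RNA was taken 5 days after induction. The osteogenic medium held 50 µM ascorbic acid, 10 mM β-glycerophosphate and 10 nM dexamethasone. The adipogenic medium held 10 µg/ml insulin, 0.5 µM isobutylmethylxanthine and 1000 nM dexamethasone, so both media held the glucocorticoid and the adipogenic one more of it. The other 6 of the 12 libraries, labelled KO in the same media, came from Prx1-cre;Chd7 fl/fl mice, in which Cre is driven in limb mesenchyme, and they were used here only to set the same difference between media beside that of the control cells. Of 54532 genes listed in FPKM (fragments per kilobase of exon, scaled to the library's total of fragments), 12211 reached an FPKM of 1 in at least 3 of the 6 control libraries and were tested. Nothing in the labels ties a replicate number to a mouse or a dish, so p-values measure the spread between these libraries, which may be technical.

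MSCs are marrow stromal cells that can be driven toward bone or fat in culture. Osteoblast commitment runs through the transcription factors RUNX2 and Osterix (Sp7) to alkaline phosphatase, collagen I and mineral-regulating matrix proteins, while adipocyte commitment runs through C/EBP factors and PPARγ to fatty acid binding, lipid droplet and adipokine genes. Dexamethasone acts on the glucocorticoid receptor, which switches on a well known set of target genes in most cells, isobutylmethylxanthine raises cAMP by blocking phosphodiesterases, and insulin favours lipid synthesis.

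The label was checked against markers. Of 15 stromal markers, 12 reached 1 FPKM in 3 or more of the 6 libraries, with a summed level of 1333 to 1508 FPKM in osteogenic and 1689 to 1983 FPKM in adipogenic libraries. Col1a1 is 1 of the 15 and carries much of that sum (587 to 718 FPKM in osteogenic and 819 to 1073 FPKM in adipogenic libraries). The surface markers Thy1 (0.331 to 0.548 FPKM in osteogenic libraries), Nt5e (0.477 to 0.684) and Lepr (0.449 to 0.473) stayed under 1 FPKM in all 6. Other surface markers of the list, such as Itgb1, Eng and Cd44, were among the 12. All 21 macrophage markers were expressed, with a summed level of 17298 to 17820 FPKM in osteogenic libraries and of 21982, 12147 and 21664 FPKM in adipogenic libraries 1, 2 and 3. Lyz2, the lysozyme of phagocytes, stood at 9182 ± 204 FPKM (mean ± SD, n = 3) in osteogenic libraries and at 13878, 5456 and 14412 FPKM in the adipogenic ones, among the 3 highest genes of the table. It is 1 of the 21 macrophage markers and carries much of these sums, which do not show the direction of the other markers. Of the 21, 10 had a positive and 11 a negative difference with all libraries, whether called or not. The libraries therefore hold much RNA typical of macrophages beside stromal RNA, and in bulk RNA fewer cells of a type and less RNA per cell cannot be told apart. Its part in each result below was not tested. Endothelial markers summed to at most 7.32 FPKM, and the T cell gene Cd3e was listed at 0 in all 6 libraries.

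Adipogenic library 2 stood apart from the other adipogenic controls. Across the 12211 genes, adipogenic libraries 1 and 3 correlated at r = 0.990 on the log2(FPKM + 1) scale, whereas library 2 correlated with them at 0.939 and 0.943 and with the 3 osteogenic control libraries at 0.980 to 0.982. These correlations run across genes, which are not independent replicates. In a principal component analysis of the 6 libraries the first component held 75.8% of the variance and placed library 2 at -14.97, between the osteogenic libraries (-24.5 to -20.8) and libraries 1 and 3 (43.0 and 40.2). The second component (10.6%) separated library 2, at -24.0, from all others. Whether library 2 is a mixture or carries the right label was not tested. Its depth was the highest of the 6, with 21099602 fragments recovered on genes against 17496340 to 19152673 in the others.

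That library decided how many genes passed the test. With all 6 libraries, limma on log2(FPKM + 1) called 527 genes (4.32% of those tested) at an adjusted p under 0.05, of which 196 (1.61%) rose and 331 (2.71%) fell in adipogenic medium. Without adipogenic library 2 the same test called 5833 genes (47.8%), of which 3010 (24.6%) rose and 2823 (23.1%) fell. Of them 793 differed by more than 2-fold, against 82 with all libraries. This fit leaves out the library that departed most, so the spread within the adipogenic group is smaller. Its adjusted p-values, here and below, describe libraries 1 and 3 against the osteogenic ones and are not error rates for the medium. All 527 genes were among the 5833 and had the same direction in both, which is 9.03% of the larger set. In every one of the 527 the 3 adipogenic libraries lay on one side of the 3 osteogenic ones, against 35.1% of all genes tested. A low p from 3 libraries per group favours such genes, and the fits share all libraries except library 2. Neither figure is therefore independent support for the calls. With library 2 set aside, libraries 1 and 3 both lay on one side of the osteogenic range in 67.6% of genes. Leaving out any other single library left 0 to 11 calls. Of 52 named genes called, 27 lost the call when each library was rescaled to the same summed FPKM. That rescaling left 97 calls in all (30 higher and 67 lower) and moved the median difference of all genes from 0.01 to -0.10 (log2), and to -0.19 without library 2. One small RNA gene, Gm23935, reached 40570 FPKM in adipogenic library 3 against 8424 ± 4280.0 in osteogenic libraries and carries part of that library's sum. It was 5723 FPKM in adipogenic library 1, whose sum was also high (349779 FPKM against 304545 to 318916 FPKM in osteogenic libraries). Abundant genes such as Fth1 carry part of both sums (22380 and 21636 FPKM in libraries 1 and 3 against an osteogenic mean of 8271 FPKM). Genes are therefore described in 3 groups below: those beyond all osteogenic libraries in each adipogenic library, those with library 2 at osteogenic levels, and those in which library 2 went the other way or further.

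**Figure D1:**
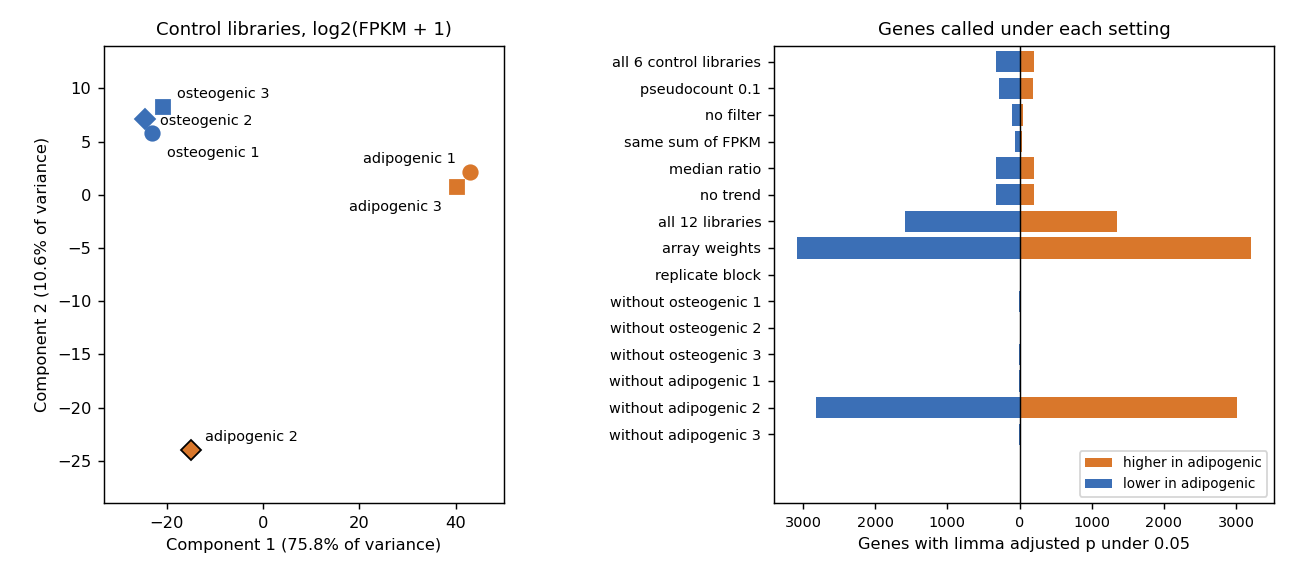
Left, the 6 control libraries on the first and second principal components of log2(FPKM + 1) (blue, osteogenic; orange, adipogenic; symbols mark library numbers, and adipogenic library 2 is outlined). Right, the number of genes called by limma under each setting (orange, higher and blue, lower in adipogenic medium): 527 with all 6 libraries, 5833 without adipogenic library 2, and 0 to 11 without any other library.

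Several glucocorticoid receptor targets were lower in all 3 adipogenic libraries. Fkbp5, which encodes an immunophilin that restrains the receptor, stood at 30.6, 32.6 and 31.3 FPKM in the osteogenic libraries and at 3.91, 5.46 and 3.69 FPKM in the adipogenic ones. It fell by 2.62 on the log2(FPKM + 1) scale (SE 0.13, adjusted p = 0.00455). The groups were far apart, with library 2 the highest of the adipogenic ones. Tsc22d3, the anti-inflammatory leucine zipper GILZ, was 36.4, 38.5 and 38.1 FPKM in osteogenic and 6.74, 11.7 and 7.08 FPKM in adipogenic libraries (difference -2.06, SE 0.20, adjusted p = 0.0118). Zbtb16, the transcription factor PLZF, went from 2.02, 1.77 and 2.09 FPKM to 0.127, 0.298 and 0.0234 FPKM (-1.37, SE 0.12, adjusted p = 0.0103), where the last value is close to no signal. For the clock gene Per1 the levels were 15.1, 15.2 and 15.3 FPKM and 8.65, 5.95 and 8.22 FPKM (-0.93, SE 0.13, adjusted p = 0.0277). Klf9, a transcription factor named here after its values were seen, was 17.8, 17.8 and 18.5 FPKM against 6.97, 7.12 and 7.36 FPKM and gave -1.22 (SE 0.05, adjusted p = 0.00328). In all 5 genes no adipogenic library reached the lowest osteogenic one.

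Of 19 glucocorticoid-induced genes listed, 18 were tested, 5 fell and none rose, against 2.71% and 1.61% of all genes. The median difference was -0.29, against 0.01 over all genes. Without library 2, 10 fell and 5 rose, against 23.1% and 24.6% of all genes, with a median of -0.27. The 5 that rose were Cebpd, Angptl4, Dusp1, Errfi1 and Nfkbia, and the first and last of them are also inflammatory response genes. Cebpd, for example, was 6.62 ± 0.595 FPKM in osteogenic libraries and 29.3, 6.48 and 30.3 in adipogenic libraries. The metallothionein Mt1 (148, 159.8 and 167 FPKM against 135, 169.9 and 136 FPKM) and Glul (68.0, 69.7 and 68.4 against 59.0, 48.8 and 65.2) did not pass with all libraries. The labels give more dexamethasone for the adipogenic medium, so these targets in the libraries labelled as control went against the labelled dose. Whether a medium or genotype label was exchanged in some group was not tested, and each difference between media below rests on the labels as given. In the libraries labelled knockout the same list went with it: 13 of 18 rose, 2 fell and the median was 1.09, against 13.7% and 14.4% of all genes and a median of 0.00.

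A glucocorticoid response element (AGAACA and TGTTCT with any 3 bases between them) was looked for on both strands of the RefSeq promoter windows, which run from 250 bases before to 50 bases after a gene's start. It occurred in 3 of 32851 windows (0.00913%), and 1 of those is a start of Sgk1, a receptor-responsive kinase of salt transport. The stretch of 250 bases before that start is shown for this reason, with the element in capitals (GRCm38.p6, chr10:21993640-21993889, plus strand).
Sgk1: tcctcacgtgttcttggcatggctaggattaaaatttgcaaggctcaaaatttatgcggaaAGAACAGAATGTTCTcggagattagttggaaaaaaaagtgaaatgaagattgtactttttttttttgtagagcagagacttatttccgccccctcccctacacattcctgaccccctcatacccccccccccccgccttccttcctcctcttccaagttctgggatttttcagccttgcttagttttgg
Sgk1 itself was 48.3, 48.9 and 51.0 FPKM in osteogenic libraries and 38.3, 25.6 and 41.1 FPKM in adipogenic libraries. All 3 adipogenic values lay under the osteogenic range, but the difference (-0.51, SE 0.18, adjusted p = 0.134) was not called with all 6 libraries, and it was without library 2 (-0.31, SE 0.05, adjusted p = 0.00309). Of the list, 15 genes had a window, and no other held these letters.

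Genes of the fat programme did not rise together. Of 12 adipokines and mature adipocyte markers only Nnat, a gene of neural and adipose tissue, was expressed enough to be tested. Adiponectin (Adipoq) stood at 0.132, 0.192 and 0.0381 FPKM in the adipogenic libraries and perilipin 1 (Plin1) at 0, 0.0411 and 0 FPKM, and leptin (Lep) was listed at 0 in all 6. Among 15 adipogenic transcription factors tested with all libraries, 1 fell and none rose, against 2.71% and 1.61% of all genes. The list's median was 0.08 as deposited and -0.04 after rescaling to equal sums. The one that fell was the retinoid receptor and PPAR partner Rxra (41.1, 41.1 and 42.1 FPKM against 27.7, 30.1 and 26.4 FPKM; -0.55, SE 0.06, adjusted p = 0.0172). Rxra was not called after rescaling to equal sums (adjusted p = 0.0835). Pparg, the master regulator of fat cells, was 6.83, 8.12 and 7.20 FPKM in osteogenic libraries and 3.85, 10.5 and 4.45 FPKM in adipogenic libraries. Libraries 1 and 3 lay under every osteogenic library and library 2 over them, so the difference of -0.32 had an SE of 0.33 (adjusted p = 0.554), and it was -0.70 without library 2 (SE 0.09, adjusted p = 0.00161). Its partner Cebpa was 108, 102 and 108 FPKM and 40.7, 73.2 and 41.4 FPKM, lower in all 3 adipogenic libraries, with an adjusted p of 0.0588 (-1.07, SE 0.23) and of 9.64e-06 without library 2. The early factors Cebpb (45.9 ± 1.16 FPKM against 172, 45.1 and 194 FPKM) and Cebpd were high in libraries 1 and 3 only, and neither was called with all 6.

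Lipid handling genes were called in both directions. Of 25 tested, 1 rose and 6 fell with all libraries, against 1.61% and 2.71% of all genes, and the median was -0.12 (-0.25 after rescaling to equal sums). Without library 2, 10 rose and 12 fell, against 24.6% and 23.1% of all genes, with a median of -0.15 (-0.33 after rescaling). Fabp4, the fatty acid binding protein of fat cells and macrophages, was 33.7, 35.3 and 36.0 FPKM in osteogenic and 12.7, 19.6 and 13.04 FPKM in adipogenic libraries (-1.18, SE 0.16, adjusted p = 0.0277). Lipoprotein lipase (Lpl) was 116, 117 and 101 FPKM and 55.0, 65.5 and 53.8 FPKM (-0.93, SE 0.10, adjusted p = 0.0166). The desaturase Scd2 went from 148, 135 and 136 FPKM to 96.0, 87.8 and 103 FPKM (-0.54, SE 0.08, adjusted p = 0.0303). In none of these 3 genes did the groups overlap, but Fabp4 and Lpl were not called after rescaling to equal sums (adjusted p = 0.0636 and 0.0595). Fatty acid synthase (Fasn; -0.51, adjusted p = 0.0313), acetyl-CoA carboxylase (Acaca; -0.34, 0.0318) and the triglyceride lipase Pnpla2 (-0.44, 0.0495) were the other members that fell. Malic enzyme (Me1), a source of NADPH for lipid synthesis, was the one that rose, from 17.0, 16.6 and 15.9 FPKM to 26.2, 26.7 and 26.5 FPKM (0.65, SE 0.05, adjusted p = 0.00922). Me1 was not called after rescaling to equal sums either (adjusted p = 0.0938). The droplet coat gene Plin2 was 92.4, 99.0 and 95.4 FPKM against 77.5, 66.2 and 79.5 FPKM (adjusted p = 0.0677), and the scavenger receptor Cd36 was 160.2, 167 and 152 FPKM against 214, 165 and 228 FPKM (adjusted p = 0.168). Acsl1 and Dgat2, which activate fatty acids and build triglyceride, showed the pattern of Cebpb: Acsl1 was 3.89 ± 0.221 FPKM in osteogenic libraries and 17.2, 4.498 and 16.9 FPKM in adipogenic libraries (adjusted p = 0.147, and 9.25e-06 without library 2).

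Alkaline phosphatase was higher in the adipogenic medium, in each of its libraries. Alpl, the enzyme that frees phosphate for mineral and a standard early osteoblast marker, was 6.62, 5.28 and 5.37 FPKM in osteogenic libraries and 57.5, 22.0 and 50.1 FPKM in adipogenic libraries. Library 2 was the lowest of the adipogenic ones and still well above the highest osteogenic one. The difference was 2.61 (SE 0.36, adjusted p = 0.0273), and 3.02 without library 2 (SE 0.11, adjusted p = 1.84e-05). Osteonectin (Sparc), a collagen-binding matrix protein, was 462, 416 and 462 FPKM against 758, 649.5 and 699 FPKM (0.65, SE 0.09, adjusted p = 0.0246). Periostin (Postn) was 71.2, 65.6 and 69.0 FPKM against 108, 93.9 and 107 FPKM (0.58, SE 0.08, adjusted p = 0.0237). The phosphate transporter Slc20a2 was the remaining member that rose (0.34, adjusted p = 0.0445). Osteopontin (Spp1), made by osteoblasts and by macrophages, fell from 1375, 1261 and 1499.8 FPKM to 839.6, 869 and 870.4 FPKM (-0.68, SE 0.09, adjusted p = 0.0217). Matrix Gla protein (Mgp), an inhibitor of mineralization, fell from 55.7, 49.8 and 66.5 FPKM to 13.8, 24.3 and 11.5 FPKM (-1.79, SE 0.27, adjusted p = 0.0318). The 3 adipogenic values of each of these genes lay outside the osteogenic range.

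With all libraries, 4 of the 15 bone matrix and mineralization genes tested rose and 2 fell, against 1.61% and 2.71% of all genes (median 0.36, and 0.25 after rescaling to equal sums). Without library 2 the counts were 7 and 5, against 24.6% and 23.1% of all genes (median 0.30, and 0.09 after rescaling). After rescaling with all libraries Alpl stayed called (adjusted p = 0.0192), while Sparc, Postn, Spp1 and Mgp did not (adjusted p = 0.0943, 0.0781, 0.0595 and 0.0596). The pyrophosphate suppliers Enpp1 (7.31, 7.43 and 7.32 FPKM against 2.800, 4.94 and 2.63 FPKM) and Ank (34.9, 33.5 and 40.2 FPKM against 9.84, 23.7 and 10.1 FPKM), which restrain mineral, were lower in each adipogenic library with adjusted p-values of 0.0548 and 0.0744. Markers of late osteoblasts and osteocytes were low in both media. Ibsp was 1.44, 0.690 and 1.89 FPKM in osteogenic libraries (54, 24 and 69 fragments). In adipogenic libraries it was 0.441, 0.462 and 0.537 FPKM (15, 20 and 18 fragments), each under the osteogenic range. It did not pass the filter and was not tested. Bglap did not exceed 0.850 FPKM, and Mepe and Sost were listed at 0 in all 6 libraries. Reads of the near-identical Bglap copies may be split between them, so their levels are uncertain.

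Among 12 osteoblast transcription factors tested with all libraries, Foxc1 alone was called, against 4.32% of all genes. It was 3.03, 2.70 and 3.19 FPKM against 4.59, 5.22 and 4.68 FPKM (0.55, SE 0.08, adjusted p = 0.0279). Foxc1 was not called after rescaling to equal sums (adjusted p = 0.147). Of the others, Runx2 was 3.70, 3.58 and 3.73 FPKM in osteogenic and 3.10, 3.34 and 2.69 FPKM in adipogenic libraries (-0.21, SE 0.08, adjusted p = 0.152), lower in each adipogenic library by a small amount. Sp7 was 3.94, 3.92 and 3.93 FPKM against 3.24, 6.62 and 3.49 FPKM, and Dlx5 was 3.12, 3.18 and 3.08 FPKM against 2.50, 4.18 and 2.75 FPKM. For both, library 2 lay above and libraries 1 and 3 below the osteogenic range, and the difference changed from 0.09 (adjusted p = 0.814) to -0.18 (0.0398) for Sp7 when library 2 was left out. For Dlx5 it went from -0.02 (adjusted p = 0.959) to -0.19 (0.04998). Without library 2 the list held 4 higher and 4 lower calls, against 24.6% and 23.1% of all genes. Its median was then 0.09, or -0.13 after rescaling to equal sums.

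Collagen genes were called in both directions. Of 21 chains tested with all libraries, 2 rose and 1 fell, against 1.61% and 2.71% of all genes (median 0.33, and 0.21 after rescaling to equal sums). Without library 2, 16 rose and 3 fell, against 24.6% and 23.1% of all genes (median 0.41, and 0.18 after rescaling). The network-forming chain Col8a1 was 14.9, 14.1 and 14.3 FPKM against 24.1, 21.9 and 23.2 FPKM (0.64, SE 0.06, adjusted p = 0.0109). The fibril-associated chain Col12a1 was 55.8, 52.2 and 50.4 FPKM against 70.6, 65.9 and 69.8 FPKM (0.38, SE 0.06, adjusted p = 0.0367). Col15a1, a basement membrane zone collagen, fell from 1.41, 1.49 and 1.59 FPKM to 0.633, 0.768 and 0.690 FPKM (-0.56, SE 0.08, adjusted p = 0.0303). Col1a1, the main chain of bone matrix, was 718, 587 and 642 FPKM in osteogenic libraries and 1073, 819 and 935 FPKM in adipogenic libraries, which did not overlap, yet the difference of 0.53 (SE 0.13) had an adjusted p of 0.0734, and of 0.00443 without library 2. Among 18 processing enzymes 1 rose and 1 fell with all libraries, against 1.61% and 2.71% of all genes. The crosslinking oxidase Loxl2 rose from 47.5, 51.3 and 45.3 FPKM to 89.8, 68.8 and 81.7 FPKM (adjusted p = 0.0318). The lysyl hydroxylase Plod1 fell from 46.7, 45.5 and 47.1 FPKM to 34.2, 33.8 and 31.5 FPKM (adjusted p = 0.0171). None of these 5 genes was called with all libraries after rescaling to equal sums (adjusted p = 0.0737 for Col8a1, 0.236 for Col12a1, 0.0698 for Col15a1, 0.0655 for Loxl2 and 0.0820 for Plod1). Nidogen 2 (Nid2), a basement membrane linker outside these lists, was 6.07, 5.71 and 5.54 FPKM against 22.8, 15.3 and 23.7 FPKM (1.65, SE 0.17, adjusted p = 0.0134).

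**Figure D2:**
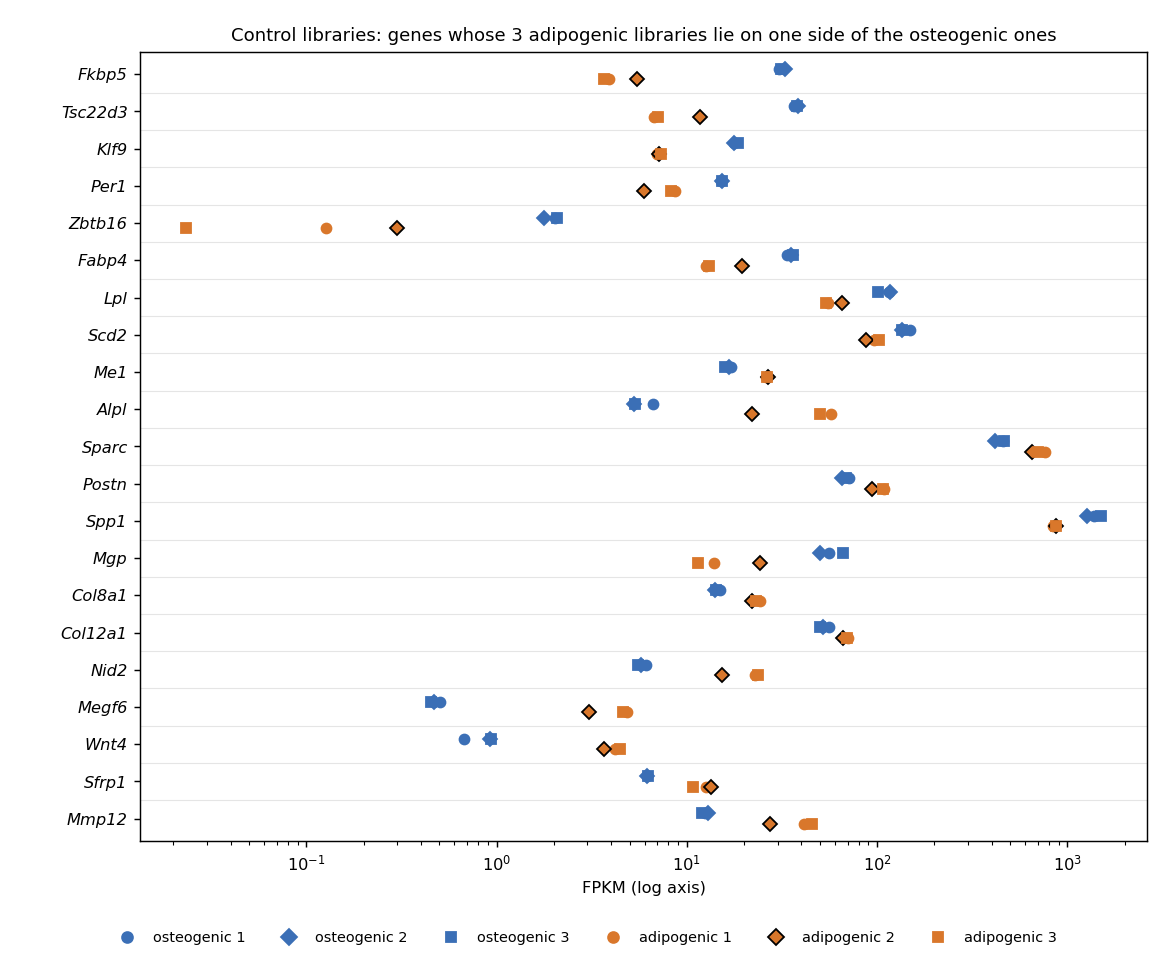
FPKM (log axis) of 21 genes in each control library (blue, osteogenic; orange, adipogenic; symbols mark library numbers and adipogenic library 2 is outlined). In each gene the 3 adipogenic libraries lie on one side of the 3 osteogenic ones: Fkbp5 falls from 30.6 to 32.6 down to 3.69 to 5.46 FPKM, and Alpl stands at 22.0 to 57.5 against 5.28 to 6.62 FPKM.

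Of 22 sterol synthesis and uptake genes tested, 21 had a negative difference, whether called or not, and the median was -0.47 (-0.59 without library 2), against 0.01 over all genes. With all libraries 2 fell, against 2.71% of all genes. Among them the desaturase Sc5d went from 19.4, 19.0 and 18.6 FPKM to 12.8, 15.3 and 13.5 FPKM (-0.43, SE 0.07, adjusted p = 0.0385). Sc5d was not called after rescaling to equal sums (adjusted p = 0.126). Without library 2, 18 fell and 1, the cholesterol exporter Abca1, rose, against 23.1% and 24.6% of all genes. Insig1, which retains the sterol sensor in the endoplasmic reticulum, was 50.4, 49.3 and 48.9 FPKM against 29.4, 42.4 and 27.9 FPKM (adjusted p = 0.0892, and 5.00e-05 without library 2), and Hmgcs1, which makes HMG-CoA, was 31.5, 31.9 and 31.9 FPKM against 19.4, 25.8 and 19.1 FPKM (0.0587 and 4.01e-05). Library 2 lay between the osteogenic libraries and libraries 1 and 3 in most of these genes: on a scale from 0 at the osteogenic mean to 1 at the mean of libraries 1 and 3, its median position over the 19 genes called without it was 0.37.

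A sterol response element spelled TCACNCCAC was found in 408 of the 32851 promoter windows (1.24%), and in 1 of the 14 listed genes with a window, Hmgcs1. Its 250 bases before the start are shown with the element in capitals (GRCm38.p6, chr13:119690101-119690350, plus strand).
Hmgcs1: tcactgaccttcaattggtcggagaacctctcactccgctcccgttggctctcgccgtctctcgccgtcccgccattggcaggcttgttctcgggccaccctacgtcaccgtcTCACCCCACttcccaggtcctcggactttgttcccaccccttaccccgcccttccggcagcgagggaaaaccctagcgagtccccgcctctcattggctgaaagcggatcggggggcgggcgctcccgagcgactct
The PPAR response element (AGGTCA and AGGTCA with any 1 base between them) was present in 13 windows (0.0396%) and the cAMP response element TGACGTCA in 588 (1.79%). No gene of the adipogenic factor list or the lipid list held the first. Of the cAMP list, Areg and Dusp1 held the second, Areg stayed at or under 0.118 FPKM, and limma called 0 of the 10 cAMP list members tested with all libraries (2 at an unadjusted p under 0.05, and 0 by voom; median -0.04).

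Signalling genes moved in both directions. Wnt4, a ligand of bone and kidney development, rose from 0.670, 0.922 and 0.931 FPKM to 4.19, 3.66 and 4.43 FPKM (1.47, SE 0.10, adjusted p = 0.00922). The secreted Wnt antagonist Sfrp1 rose from 6.20, 6.16 and 6.25 FPKM to 12.6, 13.3 and 10.8 FPKM (0.87, SE 0.08, adjusted p = 0.0118), and its relative Sfrp2 fell from 4.84, 4.23 and 5.20 FPKM to 3.02, 2.84 and 2.32 FPKM (-0.63, SE 0.10, adjusted p = 0.0375). These were the 3 calls among 21 Wnt, BMP and TGF-β ligands and inhibitors tested, against 4.32% of all genes. The list's median was 0.27 with all libraries, and without library 2 0.16, or -0.05 after rescaling to equal sums. In the insulin and IGF axis 2 of 16 genes rose, against 1.61% of all genes. The carrier Igfbp2 rose from 0.358, 0.354 and 0.306 FPKM to 1.58, 1.42 and 1.20 FPKM (adjusted p = 0.0174). The insulin receptor adaptor Grb14 rose from 1.41, 1.48 and 1.63 FPKM to 3.76, 2.51 and 3.60 FPKM (adjusted p = 0.0392). Both had low levels in osteogenic medium. The vitamin D receptor Vdr was 4.15, 4.47 and 3.92 FPKM against 19.2, 8.38 and 17.8 FPKM (1.56, SE 0.30, adjusted p = 0.0493). After rescaling to equal sums Wnt4 stayed called (adjusted p = 0.00791). Sfrp1, Sfrp2, Igfbp2, Grb14 and Vdr did not (adjusted p = 0.0820, 0.0781, 0.0595, 0.0560 and 0.0510).

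The other genes among the 12 largest differences in each direction had varied roles. Macrophage elastase (Mmp12) rose from 12.5, 12.9 and 12.0 FPKM to 41.1, 27.3 and 45.7 FPKM (1.51, SE 0.19, adjusted p = 0.0216). The endothelin receptor Ednrb was 3.48, 3.39 and 3.67 FPKM against 12.7, 6.94 and 15.004 FPKM (adjusted p = 0.0443), and tissue factor (F3), which starts coagulation, was 1.90, 1.79 and 1.46 FPKM against 6.53, 5.52 and 7.16 FPKM (adjusted p = 0.00922). Granzyme B (Gzmb; 0.456 to 0.630 FPKM against 2.66 to 4.32 FPKM), the chemokine receptor Ccr3 (0.588 to 1.03 against 2.804 to 6.21), the MHC class II chaperone Cd74 (1.48 to 2.01 against 5.49 to 8.07), the growth arrest gene Gas1 (2.89 to 3.85 against 9.17 to 12.8) and Megf6 (0.453 to 0.504 against 3.06 to 4.85) made up the rest of the 12 largest increases. The chitinase-like protein Chil3, a marker of alternatively activated macrophages, fell from 10.3, 8.75 and 7.97 FPKM to 1.08, 0.937 and 0.983 FPKM (-2.32, SE 0.10, adjusted p = 0.00328), and here library 2 was slightly the lowest of the 3. Also lower were the G protein regulator Rgs1 (8.37 to 10.7 FPKM against 0.718 to 2.94 FPKM), the semaphorin Sema7a (23.5 to 28.4 against 3.97 to 9.82), the coagulation factor subunit F13a1 (10.5 to 11.9 against 1.26 to 3.45), the sulfotransferase Sult1a1 (5.20 to 5.64 against 0.737 to 1.55), Klhl6 (18.5 to 21.1 against 3.38 to 7.05) and the sialic acid lyase Npl (7.94 to 8.14 against 1.29 to 3.78). Mir7682 (2.93 to 4.75 FPKM against 0 to 1.06 FPKM) and the T cell receptor segment Trav15d-3 (1.78 to 3.96 against 0 to 0.364) completed the list on few fragments, and the levels of such short loci are uncertain. After rescaling to equal sums Rgs1, Sema7a, Npl and Mir7682 were not called (adjusted p = 0.0561, 0.0595, 0.0737 and 0.0510).

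Of the 21 macrophage markers, 5 fell and none rose with all libraries, against 2.71% and 1.61% of all genes (median -0.18). With library 2 left out, 10 rose and 10 fell, against 24.6% and 23.1% of all genes. The haemoglobin scavenger receptor Cd163 fell from 7.98, 8.18 and 7.46 FPKM to 2.45, 1.30 and 2.84 FPKM (-1.505, SE 0.19, adjusted p = 0.0228), and the fractalkine receptor Cx3cr1 fell from 3.70, 4.19 and 3.303 FPKM to 1.000, 0.583 and 0.808 FPKM (-1.40, SE 0.12, adjusted p = 0.0100). Among complement genes C1qc was 822, 806 and 869.9 FPKM against 488, 561 and 388 FPKM (adjusted p = 0.0393). Others behaved differently: Adgre1, which encodes F4/80, was 215, 209 and 197 FPKM in osteogenic libraries and 1171, 227 and 1136 FPKM in adipogenic libraries (adjusted p = 0.160, and 4.05e-06 without library 2), and the endotoxin coreceptor Cd14 was 24.4 ± 0.643 FPKM against 269, 26.2 and 267 FPKM. In both, library 2 was close to the osteogenic libraries.

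Interferon-stimulated genes gave the widest gap in list medians between adipogenic library 2 and the other adipogenic libraries, among lists with at least 10 genes tested; the genes named for this pattern and the next were chosen after their values were seen. Ifit1, an RNA-binding antiviral protein, was 0.851, 0.806 and 1.704 FPKM in the osteogenic libraries and 69.0, 1.67 and 51.6 FPKM in the adipogenic ones. Isg15, a ubiquitin-like modifier, was 6.49, 3.15 and 13.2 FPKM and 246, 7.14 and 169 FPKM. Gbp2, a guanylate-binding protein, was 6.25, 5.15 and 6.23 FPKM and 72.4, 13.6 and 58.3 FPKM. Libraries 1 and 3 were above all others in each, and library 2 lay inside the osteogenic range for Ifit1 and Isg15. With all libraries limma called 0 of the 20 genes tested (7 had an unadjusted p under 0.05, and voom on recovered fragments called 0), with a list median of 2.07. For Ifit1 the difference was 3.36 (SE 1.253, adjusted p = 0.153). All 20 rose without library 2, against 24.6% of all genes, with a median of 3.06. By library the median difference from the osteogenic mean was 3.34, 0.05 and 2.82 in adipogenic libraries 1, 2 and 3, and 14 of the 20 genes had library 2 inside the range of the osteogenic libraries, against 19.7% of the 5833 genes called without it.

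The promoter windows of this list were searched on both strands for an interferon-stimulated response element (GAAA and GAAACT with any 2 bases between them). This motif was added after the values were seen. It was present in 89 of 32851 windows (0.271%) and in 7 of the 18 listed genes with a window, namely Bst2, Cxcl10, Ddx58, Gbp2, Ifit1, Ifit3 and Gbp3. The first is a share of windows and the second a count of genes, which have 22 windows. The list was made of interferon-stimulated genes, so the element's presence in it says nothing about these libraries. Each stretch shows the 250 bases before the start, plus strand of GRCm38.p6, with the element or its reverse complement in capitals; Ifit1 (chr19:34640639-34640888), Ifit3 (chr19:34583279-34583528) and Gbp2 (chr3:142620413-142620662) are given as examples with low, middle and higher osteogenic levels.
Ifit1: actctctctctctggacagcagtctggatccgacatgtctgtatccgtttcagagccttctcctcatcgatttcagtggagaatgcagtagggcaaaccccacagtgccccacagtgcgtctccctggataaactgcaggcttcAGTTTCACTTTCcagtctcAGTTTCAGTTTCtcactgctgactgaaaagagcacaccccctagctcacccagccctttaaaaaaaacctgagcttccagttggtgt
Ifit3: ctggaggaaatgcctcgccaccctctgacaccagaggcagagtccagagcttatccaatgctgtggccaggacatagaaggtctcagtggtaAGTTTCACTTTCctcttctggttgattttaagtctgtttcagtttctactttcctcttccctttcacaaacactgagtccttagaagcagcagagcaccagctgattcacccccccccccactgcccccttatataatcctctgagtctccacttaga
Gbp2: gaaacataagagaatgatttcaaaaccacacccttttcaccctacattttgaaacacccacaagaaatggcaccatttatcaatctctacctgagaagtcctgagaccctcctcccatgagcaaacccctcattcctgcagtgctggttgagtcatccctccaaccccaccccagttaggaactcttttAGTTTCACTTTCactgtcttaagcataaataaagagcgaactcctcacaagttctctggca
The window of Ifit1 holds 2 copies. Ifit3, another member of the same antiviral family, was 2.12, 2.795 and 5.84 FPKM in osteogenic libraries and 120.3, 4.82 and 79.6 FPKM in adipogenic libraries.

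Among chemokine and cytokine genes, library 2 lay inside the osteogenic range in 3 of the 17 called without it, beyond it on the adipogenic side in 10 and on the other side in 4. The acute phase protein Saa3 was 4.04, 1.35 and 1.54 FPKM in osteogenic libraries and 849, 2.20 and 767 FPKM in adipogenic libraries. The neutrophil chemokine Cxcl5 was 1.86, 1.44 and 1.46 FPKM and 131, 1.56 and 148 FPKM. Tnf was 6.12, 4.75 and 6.28 FPKM and 151, 13.6 and 134 FPKM. In library 2 Saa3 and Cxcl5 lay inside the osteogenic range and Tnf lay above it. Of 19 genes tested limma called 0 with all libraries (median 1.61, with 10 at an unadjusted p under 0.05 and 1 by voom). With library 2 left out, 1 fell, against 23.1% of all genes. This was Csf1, the macrophage growth factor (137, 136 and 138 FPKM against 128, 161 and 126 FPKM). The other 16 called rose, against 24.6% of all genes, and the list's median was 2.37. S100a8, a calprotectin subunit of granulocytes and activated macrophages, went the same way (3.65, 4.63 and 5.22 FPKM against 65.8, 2.48 and 86.0 FPKM) while its partner S100a9 was listed at 0 in all 6 libraries.

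Of the 17 glycolytic and hypoxia-linked genes called without library 2, that library lay inside the osteogenic range in 3 (17.6%) and beyond it on the adipogenic side in 11 (64.7%). Over the 5833 genes called without it the shares were near these, at 19.7% and 55.3%. The glucose transporter Slc2a1 was 24.3, 20.9 and 23.9 FPKM in osteogenic libraries and 74.7, 24.2 and 77.2 FPKM in adipogenic libraries. Phosphoglycerate kinase (Pgk1) was 237, 227 and 238 FPKM and 620.2, 246 and 615 FPKM. The angiogenic factor Vegfa was 20.6, 18.3 and 19.9 FPKM and 51.2, 23.1 and 50.1 FPKM. Libraries 1 and 3 agreed closely and library 2 was at or just over the osteogenic levels. With all libraries limma called 0 of 18 (median 0.83, with 13 at an unadjusted p under 0.05 and 0 by voom). When library 2 was left out, 16 rose and 1, Car9, fell (median 1.17), against 24.6% and 23.1% of all genes. The deposited values of Gapdh (4.34, 4.14 and 4.42 FPKM against 9.50, 33.9 and 56.1 FPKM) are far below those of the neighbouring steps of glycolysis, so its level is uncertain. Of 13 matrix metalloproteinases and inhibitors, Mmp12 alone was called with all libraries, against 4.32% of all genes. Without library 2, 11 rose and Timp2 fell, against 24.6% and 23.1% of all genes. Mmp13, the interstitial collagenase of bone, was 16.2, 13.4 and 19.8 FPKM and 103, 7.81 and 87.5 FPKM, with library 2 below the osteogenic range.

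For replication genes library 2 went past the osteogenic libraries in the opposite direction. Of 23 replication and mitosis genes limma called 0 with all libraries (median -0.11, with 0 also at an unadjusted p under 0.05 and by voom). When library 2 was left out, 17 fell (median -0.37), against 23.1% of all genes. In each of those 17 library 2 lay above the osteogenic range while libraries 1 and 3 were low, so the list's median was -0.36, 0.39 and -0.36 in libraries 1, 2 and 3. Mki67, the proliferation marker, was 20.9, 22.4 and 18.8 FPKM against 10.3, 22.8 and 11.6 FPKM, and the replication clamp Pcna was 116, 121 and 109.8 FPKM against 65.9, 139 and 64.5 FPKM. In the 5 smooth muscle contractile genes called without library 2, that library lay beyond the osteogenic range on the adipogenic side, past libraries 1 and 3 (median position 2.37 on a scale with the osteogenic mean at 0 and libraries 1 and 3 at 1). Calponin (Cnn1) was 15.7, 16.6 and 15.1 FPKM against 23.8, 35.1 and 21.7 FPKM, and smooth muscle actin (Acta2) was 719.9, 761 and 728 FPKM against 848, 1159 and 829.8 FPKM (0.34, SE 0.14, adjusted p = 0.181). With all libraries limma called 0 of 10 (3 at an unadjusted p under 0.05, and 0 by voom). Without library 2, 5 rose, against 24.6% of all genes, with a median of 0.17 that became -0.06 after rescaling to equal sums.

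**Figure D3:**
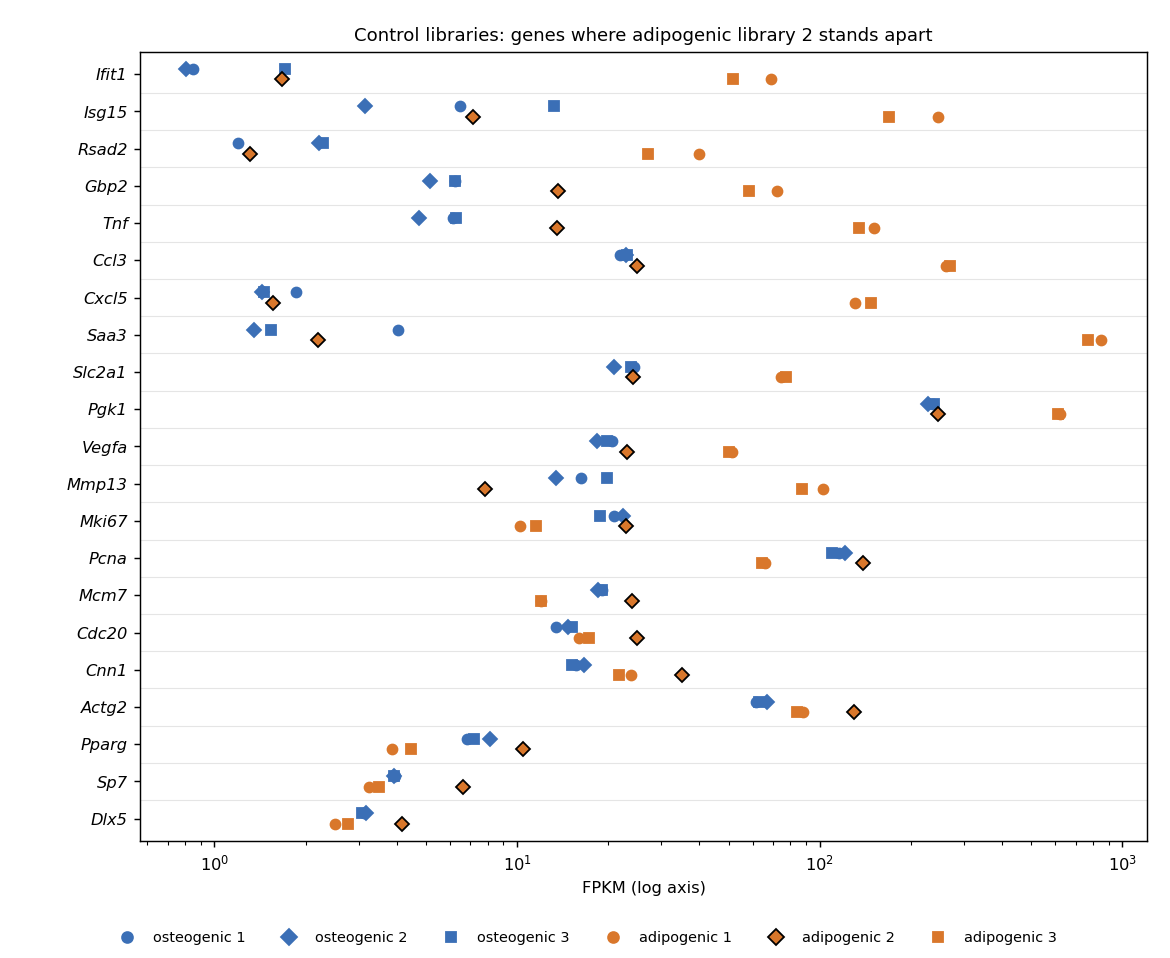
FPKM (log axis) of 21 genes in each control library, chosen to show where adipogenic library 2 (outlined diamond) stands. It lies among or near the osteogenic libraries (blue) for interferon, chemokine and glycolysis genes, where libraries 1 and 3 (orange circle and square) are far higher, and beyond the osteogenic libraries for Pcna, Mcm7, Cnn1, Pparg, Sp7 and Dlx5.

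Over the 5833 genes called without it, library 2 had a median position of 0.18 (interquartile range -0.12 to 0.51) on the scale from the osteogenic mean (0) to the mean of libraries 1 and 3 (1). It lay inside the osteogenic range in 1149 genes, beyond it on the adipogenic side in 3223 and beyond it on the other side in 1461. Position differed by list: the median was 0.78 for the 19 collagen chains called, 0.50 for 12 bone matrix genes, 0.37 for 19 sterol genes, 0.16 for 15 glucocorticoid-induced genes, 0.08 for 17 glycolysis genes, 0.02 for 20 interferon genes, -0.17 for 12 metalloproteinase genes and -0.70 for 17 replication and mitosis genes, and it was 0.88 for 13 Wnt, BMP and TGF-β genes. These positions describe 1 library and carry no test.

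**Figure D4:**
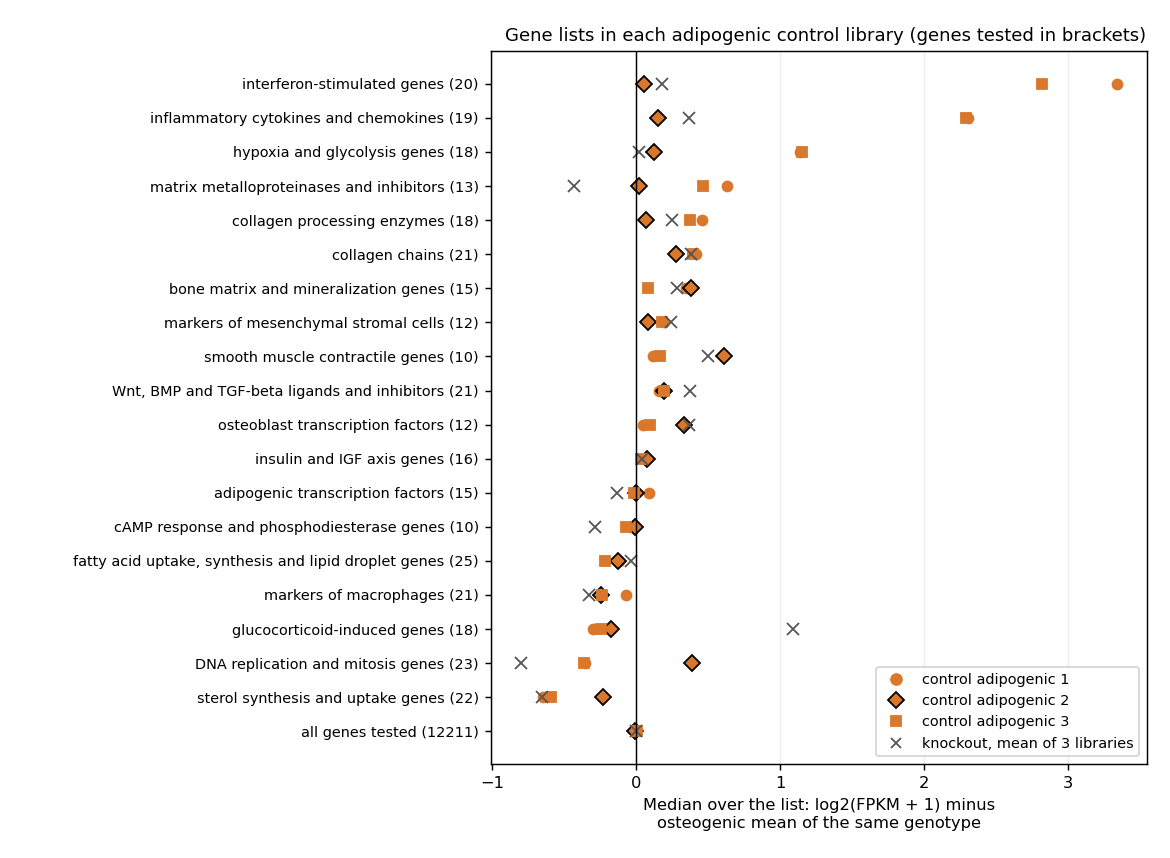
Median difference from the osteogenic mean of the same genotype, on the log2(FPKM + 1) scale, for each list with at least 10 genes tested, in control adipogenic libraries 1, 2 (outlined) and 3, with the mean of the 3 adipogenic libraries labelled knockout as crosses. Interferon genes stand at 3.34 and 2.82 in libraries 1 and 3 and at 0.05 in library 2, and glucocorticoid-induced genes at 1.09 in the knockout libraries and below 0 in all control libraries.

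The difference between media was then set beside that of the 6 libraries labelled knockout. These are separate libraries, but their test was fitted over all 12, so its estimate of the spread also uses the control libraries. Chd7 itself, over the whole gene, was 2.64, 2.67 and 2.77 FPKM and 2.26, 1.81 and 2.23 FPKM in the control media and 2.22 ± 0.166 and 2.29 ± 0.235 FPKM in the libraries labelled knockout, so reads over the whole gene were not lost in the latter, and the deleted exon was not measured here on its own. In the knockout libraries 3432 genes (28.1%) differed between media, 1672 (13.7%) higher and 1760 (14.4%) lower. In the same fit over 12 libraries the control difference was called for 2937 genes, against 527 from the 6 control libraries alone. The like count to set beside 3432 is therefore 2937. Of the 196 genes higher in control adipogenic medium, 60 were also higher in the knockout libraries (30.6%) and 50 were lower. Of the 331 lower genes, 98 were also lower (29.6%) and 79 were higher. A direct test of the difference between the genotypes (the limma interaction of medium and genotype over 12 libraries) called 2533 genes (20.7%), positive in 1204 (9.86%) and negative in 1329 (10.9%), and 5273 (43.2%) without control adipogenic library 2.

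Fkbp5 had the largest negative interaction of the genes called in the control cells. In the knockout libraries it was 6.90, 6.29 and 6.19 FPKM in osteogenic and 29.9, 42.8 and 41.9 FPKM in adipogenic medium, the reverse of the control cells (interaction -5.00, SE 0.20, adjusted p = 9.31e-07). Tsc22d3 (13.4 ± 0.240 to 51.9 ± 7.66 FPKM in the knockout libraries; interaction -3.93), Klhl6 (-3.38), Sult1a1 (-3.22) and Zbtb16 (-3.19) followed, with adjusted p-values of at most 1.11e-04. The largest positive one was Nqo1, a quinone reductase of the oxidative stress response. It rose from 10.8, 10.3 and 11.9 to 22.7, 25.1 and 26.9 FPKM in control cells (1.11, SE 0.08, adjusted p = 0.00922) and fell from 32.8 ± 1.98 to 2.55 ± 0.125 FPKM in knockout libraries (interaction 4.36, SE 0.10, adjusted p = 1.30e-08). Srxn1, which repairs peroxiredoxins and belongs to the same response, was 58.2, 58.3 and 57.5 against 165, 102 and 183 FPKM in control cells (interaction 2.61, adjusted p = 2.07e-04). Mmp12 (3.71), Ednrb (3.36) and the fungal sugar receptor Clec7a (2.46; 22.9, 24.7 and 21.0 FPKM against 30.03, 36.2 and 34.6 FPKM in control cells) completed the 5 largest positive ones.

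Other differences had the same direction in both genotypes. Alpl was 4.63 ± 0.299 FPKM in osteogenic and 27.5 ± 2.26 FPKM in adipogenic knockout libraries (2.34, adjusted p = 2.49e-04), with an interaction of 0.27 (SE 0.39, adjusted p = 0.656), which was called without control adipogenic library 2 (0.69, adjusted p = 0.00266). Sema7a (-2.47 in knockout libraries), Igfbp2 (0.88) and Spp1 (-0.87) were likewise called in both with no interaction called, which does not show that the sizes are equal. F3 (1.07 in knockout libraries) and Megf6 (1.27) were called in both too, with an interaction called only without library 2 (adjusted p = 0.00628 and 0.00616). In sterol synthesis and uptake 21 of 22 genes fell in the knockout libraries, against 14.4% of all genes. The interaction was called for 5 of the 22, near the 20.7% of all genes. In the lipid list the interaction was called for 12 of 25 genes, against 20.7% of all genes. In the knockout libraries 6 of them rose and 9 fell, against 13.7% and 14.4% of all genes (median -0.04). Fabp4 was 21.5 ± 1.47 FPKM and 37.8 ± 2.24 FPKM in the knockout media (0.79, interaction -1.97, adjusted p = 1.13e-04), and Plin2 was 63.9 ± 3.00 and 147 ± 12.3 FPKM (1.18, interaction -1.54, adjusted p = 2.01e-05), whereas Cd36 (-0.88) and Scd2 (-1.10) fell there. Mgp, which fell in control cells, rose in the knockout libraries (0.95, interaction -2.74, adjusted p = 2.800e-04). Of the 62 named genes tested, the interaction was called for 43, against 20.7% of all genes. Some were named for a large called interaction and others for a large control difference, so that count is partly set by the choice of genes.

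**Figure D5:**
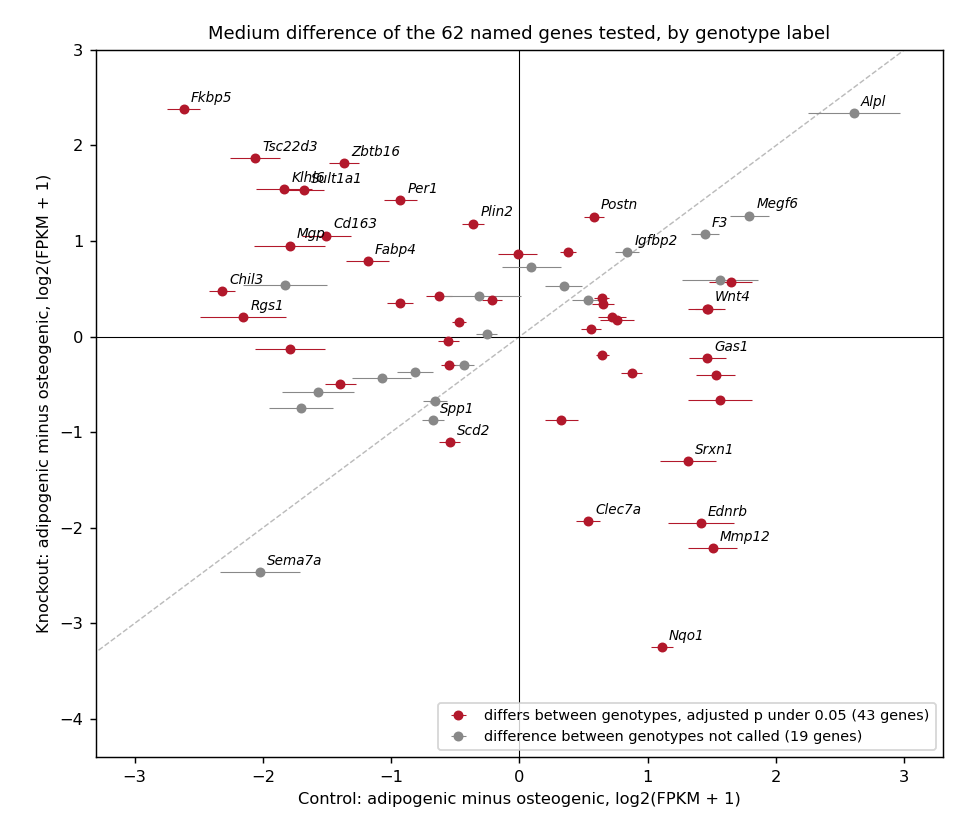
Difference between adipogenic and osteogenic medium on the log2(FPKM + 1) scale for the 62 named genes tested, in control libraries (horizontal, bars show the SE) and in libraries labelled knockout (vertical), red where the difference between genotypes was called (43 genes) and grey otherwise; the dashed line marks equal differences. Fkbp5, Tsc22d3 and Zbtb16 lie at the upper left (lower in control, higher in knockout), Nqo1 and Mmp12 at the lower right, and Alpl and Sema7a near the line. Some genes were named for a large called interaction, so the share in red is not that of all genes (20.7%).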

How the data were processed

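The deposited table gives FPKM per gene for 12 libraries, made by the authors from reads of a NEBNext Ultra library kit on an Illumina HiSeq instrument. The submitters' processing notes name Bowtie 0.12.2 and the mm9 build, the study's software list names HISAT2 and Ballgown, and 54495 of the 54532 gene IDs (99.9%) are in GENCODE M21 for GRCm38, so which pipeline made the FPKM values is not settled. How strand was treated is not given in the sources used here, so overlapping and antisense genes are uncertain. For values under 30 fragments, 98.2% to 98.4% were whole multiples (tolerance 0.02 fragments) of 1 fragment given the gene's exonic length, which gave 17496340 to 21099602 fragments per library. 3 fragments on 1 kb are 0.143 to 0.185 FPKM in the control libraries, and such floors cover counting error only.

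Genes with FPKM of at least 1 in at least 3 of the 6 control libraries were tested on log2(FPKM + 1) with limma 3.58.1 (R 4.3.3, mean-variance trend, group means, Benjamini-Hochberg adjustment over all genes tested, threshold 0.05). A pseudocount of 1 understates the change of low genes. The difference between media in the knockout libraries and the interaction of medium and genotype used all 12 libraries. The test was first tested on simulated data with known changes. Named genes were the 12 largest called differences each way with non-overlapping groups (predicted and clone-based symbols left out), up to 3 called members of each gene list each way, a fixed set of adipocyte, osteoblast and glucocorticoid genes with Chd7, and up to 5 of the largest interactions each way among called genes. The members and lists were chosen with earlier results of these data known. Promoter windows came from RefSeq (GRCm38.p6) and were searched for 5 motifs, of which the interferon-stimulated response element was chosen once values were known. Alternatives tried were another pseudocount, no filter, other scalings, no trend, array weights, all 12 libraries, a replicate block and each library left out, and, chosen after seeing the data, voom on recovered fragments and combinations without adipogenic library 2. Some named genes are not reported here.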

Additional observations from a re-analysis of the deposited data

Results flagged for a closer look

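A difference between genotypes in the response to medium, tested as the limma interaction over 12 libraries (control difference minus that of the libraries labelled knockout, log2 scale), was called for 2533 genes. Among the genes named for their interaction or as part of the fixed set, every one with a called interaction is given here: it was positive for Nqo1 (4.36), Mmp12 (3.71), Ednrb (3.36), Srxn1 (2.61), Clec7a (2.46) and Cd36 (1.20). It was negative for Fkbp5 (-5.00), Tsc22d3 (-3.93), Klhl6 (-3.38), Sult1a1 (-3.22), Zbtb16 (-3.19), Per1 (-2.36), Fabp4 (-1.97), Plin2 (-1.54), Lpl (-1.28), Dlx5 (-0.88) and Runx2 (-0.59). No group held 4 or more libraries, so no single library was tested as an outlier, and adipogenic library 2 is described in the report instead.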

How the results depend on the processing

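The 527 calls (38 of them members of the lists) became 164 (15) with no filter on low values, 97 (11) with equal FPKM sums, 2937 (158) with all 12 libraries in the fit and 6302 (259) with array weights, which gave adipogenic library 2 a weight of 0.0839; they stayed within 1.5 times under another pseudocount, median ratio scaling, no trend and voom. Leaving out 1 library in turn gave 0 to 5833 calls (0 to 257 list members), and the highest value came without adipogenic library 2. Without osteogenic library 2, limma called 0 genes, with 2104 at an unadjusted p under 0.05. Without adipogenic library 2, 6268 (270) were called by voom, 6035 (249) with all other libraries, 6498 (244) with equal sums, of which 1396 were higher and 5102 lower, 5852 (258) with median ratio scaling and 5811 (257) with a pseudocount of 0.1. The replicate numbers share no stated source and same-numbered libraries deviated together weakly (r = -0.06, 0.10 and 0.06), so they were not treated as pairs; a replicate block called 0 genes and 0 list members (2964 at an unadjusted p under 0.05). The interaction's 2533 calls became 6135 with array weights, 1677 with the replicate block and 1711 to 5273 with 1 library left out, the highest without adipogenic library 2; equal sums gave 548 higher and 1635 lower calls. Of the 52 named genes called, 49 stayed called with a pseudocount of 0.1, 24 with no filter, 25 with equal sums, 48 with voom, 52 without adipogenic library 2, 0 to 3 without any other single library and 0 with the replicate block, and none reversed. Sp7, not called (0.09), ranged from -0.18 (without adipogenic library 2) to 0.25 with 1 library left out, and without that library it also reversed to -0.36 with equal sums, -0.18 with median ratio scaling and -0.22 with a pseudocount of 0.1. Apart from the left-out library itself, the cause of these shifts was not tested. The position of library 2 stayed at 0.15 to 0.18 under other scalings. Group size of 3 limits small differences, and FPKM near the floor cannot show change.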

Other observations

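Among the 15 most abundant genes, the following were picked after their values were seen for their gap between media and are given without a test. Others did not separate the media, such as the ferritin chain Ftl1 (3215 ± 212 FPKM in osteogenic libraries against 3039, 3593 and 3349 FPKM) and the mitochondrial gene mt-Cytb (2035 ± 100.1 FPKM against 1793, 2162 and 2003 FPKM). The iron storage subunit Fth1 was 8271 ± 454 FPKM (SD, n = 3) in osteogenic libraries and 22380.0, 9510.0 and 21636 FPKM in adipogenic libraries 1, 2 and 3. Apolipoprotein E (Apoe) was 7380 ± 354 FPKM against 2714, 4158 and 2199 FPKM. The lysosomal protease Ctsd was 3584 ± 34.7 FPKM against 1495, 2431 and 1450 FPKM, Ctsb was 2633 ± 28.4 FPKM against 1381, 2056 and 1298 FPKM, and the sphingolipid cofactor Psap was 4768 ± 158 FPKM against 2392, 2900 and 2201 FPKM. The actin regulator Tmsb4x was 1484 ± 81.5 FPKM against 2801, 1426 and 2655 FPKM, with library 2 inside the osteogenic range.

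Osteoclast-related genes, also picked after their values were seen, split by library. The proton pump subunit Atp6v0d2 was 35.0, 35.9 and 37.6 FPKM in osteogenic libraries and 2.11, 36.2 and 2.61 FPKM in adipogenic libraries, while Acp5, tartrate-resistant acid phosphatase, was 2.74, 3.16 and 3.87 FPKM against 35.2, 2.57 and 33.6 FPKM. The cytokine RANKL (Tnfsf11) was 1.33, 1.14 and 1.01 FPKM against 9.04, 1.92 and 10.7 FPKM.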
